A study of Mus musculus with 12 samples.

Results

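Skeletal muscle RNA was followed through 48 genes of the sarcomere, of excitation and calcium release and of the neuromuscular junction, among 52636 genes counted in cultured mouse embryonic salivary glands. The genes were picked by name as parts of the contractile and excitation machinery and matched to the count table by their Ensembl identifiers, and all 48 were found. They were picked with earlier results of these data known. Glands came from embryos at the embryonic stage E13.5 and were kept for 2 days on filters at the surface of the medium. RNA was depleted of ribosomal RNA and sequenced in 12 libraries. FGFRi glands (3 libraries) were wild type and received SU5402, a small molecule that blocks FGF receptor kinases, at 2.5 µM, and DMSO glands (3 libraries) were wild type and received its solvent. HOM glands (2 libraries) carried the K14Cre-Fgfr2b -/- genotype, HET glands (2 libraries) were heterozygous and WT glands (2 libraries) wild-type littermates, and all 6 went without treatment. In this cross a keratin 14 promoter drives the Cre recombinase, so the deletion of the FGF receptor isoform Fgfr2b is aimed at epithelium that uses keratin 14. Whether a library held 1 gland or several, and whether libraries came from separate embryos, is not stated in the labels, so a p-value here measures only how far these libraries scatter, and part of that scatter may be technical.

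In a muscle fibre, myosin thick filaments pull on actin thin filaments that are anchored at the Z disc, while titin spans the sarcomere and troponin makes the pull depend on calcium. The signal starts at the neuromuscular junction, where acetylcholine receptors depolarise the fibre, and voltage sensors in the membrane then open calcium channels of the sarcoplasmic reticulum. Fibres that are still forming use embryonic and neonatal forms of several of these proteins and replace them later by adult fast or slow forms. The salivary gland itself has no skeletal fibres in its branches, but it develops next to the muscles of the floor of the mouth. Muscle attached at dissection and muscle that grew in culture cannot be told apart in these data, nor can more muscle cells and more muscle RNA per cell.

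Promoter sequence was examined because these genes moved together between libraries, and RefSeq's table for build GRCm38.p6 held 38 of the 48 genes with 300 bases each, from 250 bases before to 50 after the annotated start. Read on both strands, the E-box CANNTG, to which myogenic factors such as MyoD bind, stood in 34 of the 38 windows (89.5%), against 72.1% of the 27025 windows in the table. Its form CAGCTG, which is counted within the E-box as well, stood in 20 of 38 (52.6%), against 16.1% of all windows. The CArG box, the site of serum response factor, was found in 4 windows (10.5%, against 1.6%), and the MEF2 site in 7 (18.4%, against 3.3%). TATAAA, which can lie inside a MEF2 site, was found in 10 windows (26.3%, against 14.2%). A match of letters is a description and no measured binding. The 6 windows printed here are those of the sarcomeric actin pair and of the embryonic and neonatal myosin pair, whose read ratios are given further on, and of a light chain and a receptor subunit that were picked for their CAGCTG. Capitals mark the E-box, CArG box, MEF2 site and TATAAA matches.
Acta1 (chr8:123894726-123895025, - strand): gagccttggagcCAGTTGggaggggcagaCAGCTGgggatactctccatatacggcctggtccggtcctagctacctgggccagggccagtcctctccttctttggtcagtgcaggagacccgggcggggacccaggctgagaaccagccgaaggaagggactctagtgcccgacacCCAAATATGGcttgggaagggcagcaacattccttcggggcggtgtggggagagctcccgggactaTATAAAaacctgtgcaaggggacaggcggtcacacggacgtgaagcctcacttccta
Actc1 (chr2:114052826-114053125, - strand): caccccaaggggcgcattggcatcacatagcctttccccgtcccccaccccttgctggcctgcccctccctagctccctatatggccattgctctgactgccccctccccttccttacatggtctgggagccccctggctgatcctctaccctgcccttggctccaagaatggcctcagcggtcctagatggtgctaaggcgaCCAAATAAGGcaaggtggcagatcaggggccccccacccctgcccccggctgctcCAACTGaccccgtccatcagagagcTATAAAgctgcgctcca
Myh8 (chr11:67276874-67277173, + strand): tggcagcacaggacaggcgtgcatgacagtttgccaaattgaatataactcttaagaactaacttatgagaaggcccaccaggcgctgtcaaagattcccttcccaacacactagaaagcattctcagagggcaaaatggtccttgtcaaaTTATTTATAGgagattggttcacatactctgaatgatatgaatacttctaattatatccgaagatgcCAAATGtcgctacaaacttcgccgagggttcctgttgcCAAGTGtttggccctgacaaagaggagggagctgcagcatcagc
Myh3 (chr11:67078050-67078349, + strand): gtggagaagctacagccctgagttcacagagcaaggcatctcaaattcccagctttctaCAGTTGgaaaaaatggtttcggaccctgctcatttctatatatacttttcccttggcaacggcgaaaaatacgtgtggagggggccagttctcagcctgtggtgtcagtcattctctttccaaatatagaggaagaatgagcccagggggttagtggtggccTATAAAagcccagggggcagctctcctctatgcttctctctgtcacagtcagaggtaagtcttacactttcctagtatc
Myl1 (chr1:66945007-66945306, - strand): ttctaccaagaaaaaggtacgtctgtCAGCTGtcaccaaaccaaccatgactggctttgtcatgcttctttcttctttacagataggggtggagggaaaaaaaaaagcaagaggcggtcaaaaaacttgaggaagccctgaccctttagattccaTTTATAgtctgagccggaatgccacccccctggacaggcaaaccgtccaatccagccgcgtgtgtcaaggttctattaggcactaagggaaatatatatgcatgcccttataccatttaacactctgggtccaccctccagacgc
Chrna1 (chr2:73580289-73580588, - strand): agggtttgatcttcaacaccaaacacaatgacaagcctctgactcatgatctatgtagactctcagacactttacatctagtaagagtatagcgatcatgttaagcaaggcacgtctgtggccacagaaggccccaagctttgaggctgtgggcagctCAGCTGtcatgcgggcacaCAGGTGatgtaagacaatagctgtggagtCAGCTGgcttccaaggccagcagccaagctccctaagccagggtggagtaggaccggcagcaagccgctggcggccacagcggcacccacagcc
Both actin windows held a CArG box, at positions -73 to -64 from the start of Acta1 and -47 to -38 from that of Actc1. The neonatal myosin gene Myh8 held a MEF2 site at -99 to -90, with TATAAA letters inside it, and the embryonic gene Myh3 held TATAAA at -29 to -24. CAGCTG stood once in the Myl1 window, at -224 to -219, and 2 times in the Chrna1 window, at -92 to -87 and -44 to -39.

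Libraries held 6043701 to 22322182 counts, and reads of the 48 genes made up 225 counts in the poorest library (WT 2) and 22003 in the richest (FGFRi 3). Levels are TMM-normalized CPM, read counts scaled to a common library size, and a single read was worth 0.0414 to 0.183 CPM, so the rarer genes rest on few reads. FGFRi 2 was the lowest of its group in 44 of the 48 genes, DMSO 1 in 38, HOM 1 in 39, HET 1 in 42 and WT 2 in 31. By Xist and the Y-linked gene Ddx3y, the FGFRi and HOM libraries and DMSO 1 and 3 were female, while HET, WT and DMSO 2 were male, so genotype and sex cannot be told apart in any comparison of HOM with its littermates. Gland markers were present throughout: 19 pan-epithelial genes summed to 3263 to 3429 CPM in FGFRi, 3927 to 4547 CPM in DMSO, 2608 to 2713 CPM in HOM, 3388 to 3633 CPM in HET and 3932 to 4009 CPM in WT libraries.

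FGF receptor inhibition was the condition with the most muscle RNA. Summed over the 48 genes, FGFRi libraries 1 to 3 held 1090.5, 285 and 1218 CPM, against 44.9, 106 and 138 CPM in DMSO libraries 1 to 3. The group means were 864 ± 506 CPM in FGFRi and 96.3 ± 47.2 CPM in DMSO glands (SD, n = 3 each). All 3 FGFRi libraries lay above all 3 DMSO libraries, but the lowest of them, FGFRi 2, lay below both HOM libraries, which held 307 and 341 CPM. HET libraries held 165 and 297 CPM and WT libraries 34.3 and 24.3 CPM (324 ± 24.3 CPM in HOM, 231 ± 93.5 CPM in HET and 29.3 ± 7.09 CPM in WT glands, SD, n = 2 each).

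**Figure D1:**
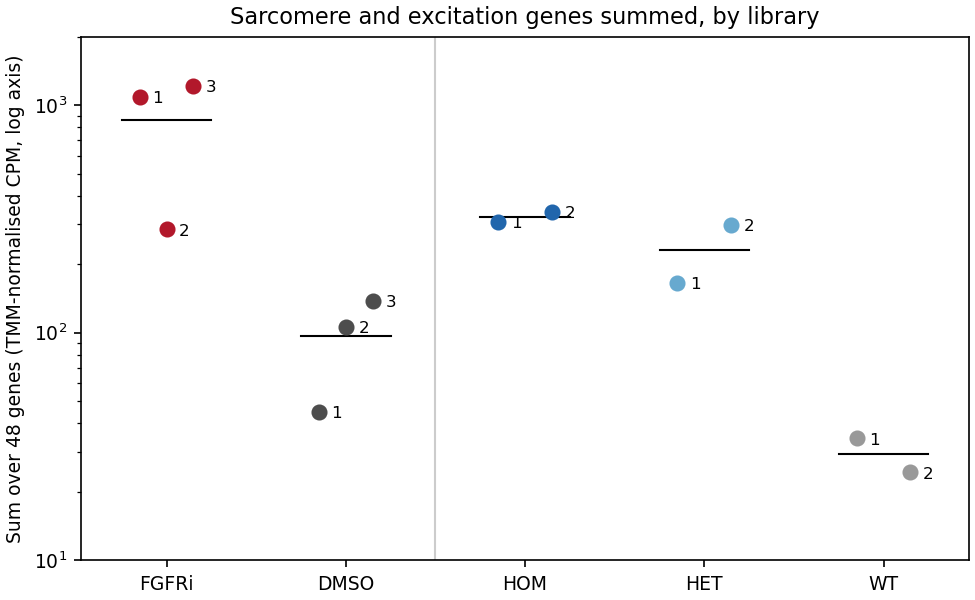
Summed level of the 48 genes in each library, in TMM-normalised CPM on a log axis, with points numbered by library and a line at the group mean. The FGFRi libraries sit between 285 and 1218 CPM and the DMSO libraries between 44.9 and 138 CPM, while HOM and HET libraries lie between 165 and 341 CPM and WT libraries at 24.3 and 34.3 CPM.

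Of the 48 genes, 44 had enough reads to be tested, and 43 of them were called higher in FGFRi than in DMSO glands by edgeR's quasi-likelihood test with Benjamini-Hochberg adjustment over 15859 genes (adjusted p under 0.05). None was called lower. Among all tested genes 9.73% were called higher and 10.7% lower. Xirp1, Trim63, Myoz2, Cacng1 and Mybpc1 reached the read filter in FGFRi libraries alone, and Myh7 and Casq1 would have missed it without them. That these genes came out higher in FGFRi was thus largely set by the filter and is no separate support. Without a filter 44 of the 48 genes were called higher, where 5.59% of all genes were. The median log2 fold change was 3.05 over the 44 genes and -0.015 over all tested genes, and in 37 of the 44 every FGFRi library lay above every DMSO library, as in 17.2% of all tested genes. The gene that missed the threshold was Myh7, the slow and beta-cardiac myosin heavy chain, at 1.83, 0.648 and 1.72 CPM in FGFRi glands, against 0.478, 0.156 and 0.657 CPM in DMSO glands (log2 fold change 1.97 ± 0.71 SE, adjusted p = 0.0643). Leaving out 1 library at a time kept 35 of the 43 calls in all 6 fits, and none of the 44 genes changed direction. The lowest count, 35, came without FGFRi 3 (9.28% of all genes called higher). With DMSO 2 left out, so that all libraries compared were female, 38 were called (6.57% of all genes).

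**Figure D2:**
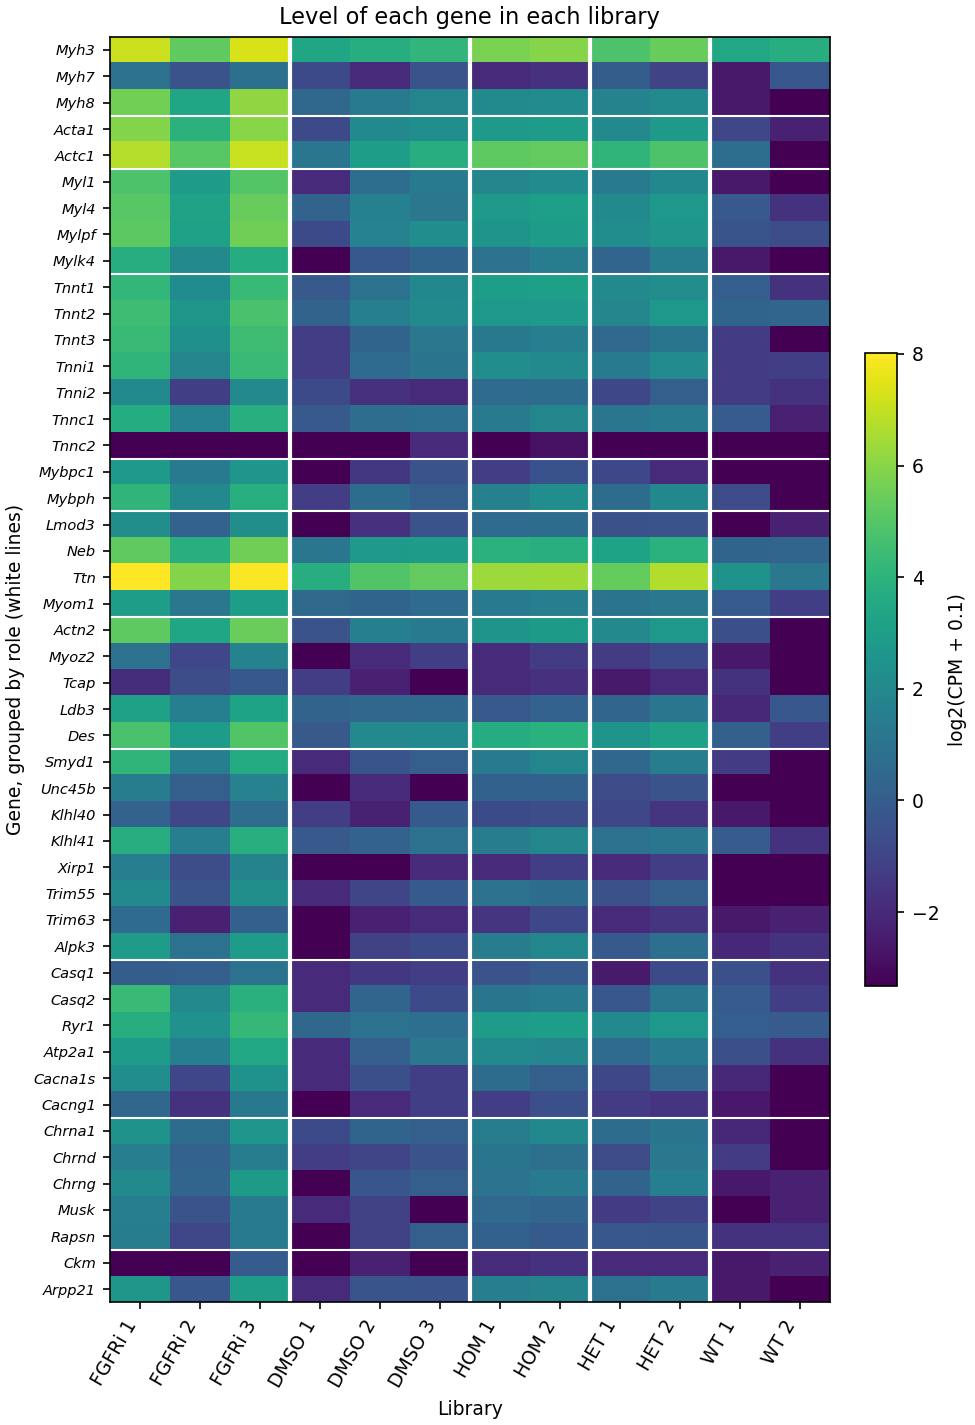
Level of each of the 48 genes (down the page, grouped by role) in each of the 12 libraries (across), as log2 of CPM plus 0.1. The FGFRi columns are brightest, with FGFRi 2 darker than its neighbours, and both WT columns are dark apart from Myh3.

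The myosin heavy chains are the motors of the thick filament. Myh3, the embryonic form, stood at 139.6, 37.9 and 161 CPM in FGFRi glands, against 10.5, 13.2 and 17.7 CPM in DMSO glands. Myh8, the neonatal form, stood at 48.3, 10.4 and 69.4 CPM in FGFRi glands, against 1.27, 2.34 and 3.45 CPM in DMSO glands. Groups did not overlap in either gene, and FGFRi 2 was the low library in both. Myh3 rose 8.26-fold (log2 3.05 ± 0.40 SE, adjusted p = 0.000119) and Myh8 rose 18.4-fold (4.20 ± 0.55, adjusted p = 0.000128).

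Sarcomeric actins build the thin filament. Actc1, the cardiac form that embryonic skeletal muscle also uses, stood at 107, 33.2 and 132 CPM in FGFRi glands, against 2.07, 8.17 and 13.46 CPM in DMSO glands. Acta1, the form of adult skeletal muscle, stood at 59.3, 15.4 and 64.6 CPM in FGFRi glands, against 0.478, 4.21 and 4.60 CPM in DMSO glands. Both separated the groups completely, and DMSO 1 was the lowest library for each. The changes were 11.5-fold for Actc1 (log2 3.52 ± 0.50 SE, adjusted p = 0.000222) and 13.6-fold for Acta1 (3.77 ± 0.50, adjusted p = 0.000134).

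The light chains sit on the neck of the myosin head. Myl1, an essential light chain of fast fibres, stood at 28.4, 7.45 and 31.2 CPM in FGFRi glands, against 0.159, 1.61 and 2.46 CPM in DMSO glands. Myl4, the embryonic and atrial essential chain, stood at 33.0, 9.18 and 40.9 CPM in FGFRi glands, against 1.11, 3.02 and 2.13 CPM in DMSO glands. Mylpf, the regulatory chain of fast fibres, stood at 36.0, 8.96 and 46.7 CPM in FGFRi glands, against 0.478, 3.12 and 4.60 CPM in DMSO glands. None of these 3 genes overlapped between groups. Mylk4, a member of the myosin light chain kinase family, stood at 13.4, 3.995 and 12.7 CPM in FGFRi glands, against 0, 0.780 and 1.15 CPM in DMSO glands, with no read in DMSO 1. In order of p the log2 fold changes were 3.56 ± 0.48 SE for Myl4, 3.92 ± 0.53 for Myl1, 3.85 ± 0.57 for Mylk4 and 3.44 ± 0.52 for Mylpf, with adjusted p between 0.000145 and 0.000362.

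Troponins make the thin filament respond to calcium. Tnnt3, the fast troponin T, stood at 19.6, 5.08 and 22.4 CPM in FGFRi glands, against 0.318, 1.14 and 2.13 CPM in DMSO glands. Tnnt2, the cardiac form that embryonic fibres share, stood at 22.8, 6.37 and 27.0 CPM in FGFRi glands, against 1.11, 2.91 and 4.10 CPM in DMSO glands. Tnni1, the slow inhibitory subunit, stood at 17.2, 3.46 and 20.5 CPM in FGFRi glands, against 0.318, 1.46 and 1.97 CPM in DMSO glands. All 3 were higher in every FGFRi library, and the spread within FGFRi was again set by library 2. Tnnt1, the slow troponin T, stood at 18.3, 4.54 and 20.6 CPM in FGFRi glands, against 0.796, 1.77 and 3.78 CPM in DMSO glands. The log2 fold changes were 3.73 ± 0.54 SE for Tnnt3, 2.77 ± 0.45 for Tnnt2, 3.40 ± 0.56 for Tnni1 and 2.85 ± 0.50 for Tnnt1, with adjusted p between 0.000266 and 0.00113. Tnnc1, the slow and cardiac calcium-binding subunit, and Tnni2, the fast inhibitory subunit, were called as well (2.85 ± 0.51 and 3.37 ± 0.77), although Tnni2 overlapped between groups, at 4.04, 0.324 and 3.98 CPM in FGFRi glands, against 0.478, 0.208 and 0.164 CPM in DMSO glands. Tnnc2, the fast calcium-binding subunit, had 2 reads in all 12 libraries together and was not tested. In the GENCODE M21 annotation 74.0% of its exonic bases are shared with Ube2c on the opposite strand, which had 355 to 2065 counts per library, and the use of strand in the counting is not given in the sources used here.

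Myosin-binding proteins lie along the thick filament. Mybpc1, the slow form of myosin-binding protein C, stood at 6.79, 2.48 and 6.09 CPM in FGFRi glands, against 0, 0.260 and 0.657 CPM in DMSO glands. Mybph stood at 16.9, 4.10 and 14.2 CPM in FGFRi glands, against 0.318, 1.51 and 0.985 CPM in DMSO glands. The groups separated for both, and DMSO 1 again lay at the bottom. The log2 fold changes were 4.09 ± 0.63 SE (adjusted p = 0.000520) for Mybpc1 and 3.38 ± 0.57 (adjusted p = 0.000812) for Mybph. Mybph shares 49.9% of its exonic bases with Adora1 on the opposite strand, which had 6 to 36 counts per library.

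Titin, nebulin and their partners set the length and order of the filaments. Ttn, the gene of titin, stood at 258, 59.8 and 250.3 CPM in FGFRi glands, against 13.4, 31.0 and 39.2 CPM in DMSO glands. Neb, the gene of nebulin, stood at 38.3, 14.1 and 46.6 CPM in FGFRi glands, against 2.07, 6.71 and 7.55 CPM in DMSO glands. Lmod3, leiomodin 3, which nucleates actin at the thin filament's pointed end, stood at 4.77, 1.08 and 4.76 CPM in FGFRi glands, against 0, 0.208 and 0.657 CPM in DMSO glands. These separated the groups, as did Myom1, the M-band protein myomesin, at 7.89, 2.16 and 8.02 CPM in FGFRi glands, against 1.43, 1.14 and 1.48 CPM in DMSO glands. Changes were 6.70-fold for Ttn, 5.81-fold for Neb, 13.1-fold for Lmod3 and 4.60-fold for Myom1 (log2 2.74 ± 0.48, 2.54 ± 0.39, 3.72 ± 0.70 and 2.201 ± 0.44 SE), with adjusted p between 0.000396 and 0.00285.

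At the Z disc, Actn2, the alpha-actinin that crosslinks thin filaments, stood at 37.1, 10.04 and 43.1 CPM in FGFRi glands, against 0.637, 2.86 and 2.46 CPM in DMSO glands. Des, the intermediate filament protein desmin, stood at 26.6, 7.34 and 30.9 CPM in FGFRi glands, against 0.796, 3.90 and 4.10 CPM in DMSO glands. Ldb3, which binds alpha-actinin, stood at 8.81, 2.92 and 9.57 CPM in FGFRi glands, against 1.11, 1.25 and 1.31 CPM in DMSO glands. The DMSO libraries were close together in Ldb3 and far apart in Actn2 and Des. Myoz2, a calcineurin-binding Z-disc protein, stood at 1.83, 0.432 and 3.21 CPM in FGFRi glands, against 0, 0.156 and 0.328 CPM in DMSO glands. Log2 fold changes were 3.75 ± 0.51 SE for Actn2, 2.77 ± 0.47 for Des, 2.52 ± 0.46 for Ldb3 and 3.52 ± 0.80 for Myoz2, with adjusted p between 0.000160 and 0.00597, and the call of Myoz2 was lost without FGFRi 3. Tcap, the gene of telethonin, was not tested for want of reads, at 0.183, 0.540 and 0.775 CPM in FGFRi glands, against 0.318, 0.104 and 0 CPM in DMSO glands.

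Among genes of assembly and turnover, Alpk3, an alpha kinase of the sarcomere, stood at 7.52, 1.84 and 7.36 CPM in FGFRi glands, against 0, 0.364 and 0.493 CPM in DMSO glands. Smyd1, a muscle methyltransferase needed for myosin assembly, stood at 16.9, 2.81 and 12.3 CPM in FGFRi glands, against 0.159, 0.676 and 0.985 CPM in DMSO glands. Klhl41, a Kelch protein that stabilises thin filaments, stood at 13.2, 2.81 and 13.502 CPM in FGFRi glands, against 0.796, 1.09 and 1.81 CPM in DMSO glands. Each separated the groups, and each had its lowest FGFRi value in library 2. Unc45b, the chaperone of myosin folding, stood at 2.57, 0.972 and 3.15 CPM in FGFRi glands, against 0, 0.156 and 0 CPM in DMSO glands. Log2 fold changes were 4.12 ± 0.63 SE for Alpk3, 4.04 ± 0.64 for Smyd1 and 3.04 ± 0.52 for Klhl41, with adjusted p between 0.000406 and 0.000955. Unc45b was also called (adjusted p = 0.000704), on 80 reads in FGFRi against 3 in DMSO, a ratio of pooled CPM of 25.7 (exact 95% interval 8.48 to 127, counting error only). Xirp1, an actin-binding repeat protein, was called on 78 reads against 1, a ratio of 75.2 (13.1 to 3007). Trim63, the ubiquitin ligase MuRF1, was called on 27 reads against 3, a ratio of 8.67 (2.67 to 44.7). Its relative Trim55 had a log2 fold change of 2.81 ± 0.67 SE (adjusted p = 0.00853). Klhl40 had too few reads to be tested, at 1.10, 0.432 and 1.55 CPM in FGFRi glands, against 0.318, 0.104 and 0.821 CPM in DMSO glands.

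Excitation and calcium handling followed the filament genes. Ryr1, the calcium release channel, stood at 13.2, 5.29 and 18.9 CPM in FGFRi glands, against 1.27, 1.77 and 1.64 CPM in DMSO glands. Casq2, a calsequestrin that stores calcium in slow and cardiac fibres, stood at 20.7, 3.995 and 14.4 CPM in FGFRi glands, against 0.159, 1.20 and 0.493 CPM in DMSO glands. Atp2a1, the calcium pump of fast fibres, stood at 7.34, 2.92 and 11.1 CPM in FGFRi glands, against 0.159, 0.989 and 2.13 CPM in DMSO glands. The groups did not overlap in these 3 genes. Cacna1s, the voltage sensor that gates Ryr1, stood at 4.59, 0.432 and 5.48 CPM in FGFRi glands, against 0.159, 0.572 and 0.328 CPM in DMSO glands, where FGFRi 2 fell below DMSO 2. Log2 fold changes were 2.97 ± 0.40 SE for Ryr1, 3.99 ± 0.60 for Casq2, 2.77 ± 0.54 for Atp2a1 and 3.05 ± 0.76 for Cacna1s, with adjusted p between 0.000153 and 0.0107. Casq1, the fast calsequestrin, and Cacng1, a subunit of the same voltage sensor, were called at 2.34 ± 0.62 and 3.01 ± 0.83. The calls of Cacna1s, Casq1 and Cacng1 were lost without FGFRi 3, and those of Casq1 and Cacng1 also without DMSO 2.

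At the neuromuscular junction, Chrna1, the alpha subunit of the acetylcholine receptor, stood at 5.32, 1.51 and 6.09 CPM in FGFRi glands, against 0.478, 1.14 and 0.985 CPM in DMSO glands. Musk, the kinase that clusters receptors, stood at 2.75, 0.648 and 2.55 CPM in FGFRi glands, against 0.159, 0.364 and 0 CPM in DMSO glands. Chrng, the gamma subunit that fetal receptors carry, stood at 4.22, 1.19 and 7.19 CPM in FGFRi glands, against 0, 0.728 and 0.985 CPM in DMSO glands. Every FGFRi library was above every DMSO library in these 3. Chrnd, the delta subunit, stood at 2.75, 1.08 and 2.71 CPM in FGFRi glands, against 0.318, 0.416 and 0.657 CPM in DMSO glands. Log2 fold changes were 2.202 ± 0.49 SE for Chrna1, 3.0 ± 0.68 for Musk, 2.81 ± 0.67 for Chrng and 2.26 ± 0.63 for Chrnd, with adjusted p between 0.00555 and 0.0201. Rapsn, the scaffold rapsyn, was the weakest of the called genes (2.05 ± 0.70, adjusted p = 0.0490). Without FGFRi 3 the calls of Chrng, Chrnd and Rapsn were lost, as was that of Trim63, and those of Chrnd, Rapsn and Trim63 were also lost without FGFRi 1, DMSO 1 or DMSO 2, each left out alone.

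Arpp21, a phosphoprotein best known from neurons, stood at 6.24, 0.756 and 8.13 CPM in FGFRi glands, against 0.159, 0.676 and 0.657 CPM in DMSO glands, a rise of 3.199 ± 0.67 SE on the log2 scale (adjusted p = 0.00372). Ckm, the creatine kinase of mature fibres, was not tested. It had 16 reads in FGFRi glands, all in library 3, against 2 in DMSO glands, a ratio of pooled CPM of 7.71 (exact 95% interval 1.81 to 69.1).

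Per kilobase of exon (GENCODE M21), Actc1 was the highest of the 48 genes in FGFRi glands at 56.1 CPM per kb, followed by Acta1 at 30.2, Mylpf at 28.8, Myh3 at 18.6 and Myl1 at 10.8 CPM per kb. In DMSO glands the same genes stood at 4.88 for Actc1, 2.02 for Acta1, 2.57 for Mylpf, 2.28 for Myh3 and 0.681 CPM per kb for Myl1. Over the 3 FGFRi libraries the ranges of neighbours in this order overlap.

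Reads of 7 pairs of related genes were set against each other within each library, and none of the 7 ratios passed a test between FGFRi and DMSO. Reads of neonatal Myh8 per read of embryonic Myh3 were 0.346, 0.274 and 0.431 in FGFRi libraries, against 0.121, 0.177 and 0.194 in DMSO libraries. They were 0.0808 and 0.0707 in HOM, 0.114 and 0.102 in HET, and 0.00658 and 0 in WT libraries, where Myh8 had 1 read and none. The FGFRi libraries were above every other library, FGFRi 2 included, whose total of muscle RNA was below that of both HOM libraries. Fast Tnnt3 per slow Tnnt1 was 1.07, 1.12 and 1.08 in FGFRi, against 0.400, 0.647 and 0.565 in DMSO libraries. It was 0.293 and 0.337 in HOM, 0.327 and 0.431 in HET, and 0.308 and 0 in WT libraries. Acta1 per Actc1 overlapped, at 0.556, 0.466 and 0.488 in FGFRi, against 0.231, 0.516 and 0.341 in DMSO libraries. It was 0.183 and 0.191 in HOM and 0.229 and 0.233 in HET libraries. By an exact two-sided permutation test, which cannot go below p = 0.1 with 3 libraries against 3, p was 0.1 for Myh8 over Myh3 and for Tnnt3 over Tnnt1 (0.35 adjusted over the 7 ratios) and 0.3 for Acta1 over Actc1 (0.525 adjusted). The other 4 ratios overlapped between FGFRi and DMSO as well: Tnni2 over Tnni1 was 0.234, 0.0938 and 0.194 in FGFRi, against 1.5, 0.143 and 0.0833 in DMSO libraries (p = 0.9 by the exact permutation test), and the same test gave 0.9 for Mylpf over Myl4, 0.4 for Chrng over Chrna1 and 0.3 for Myh7 over Myh3. The pairs were picked after the reads were seen, and in DMSO 1 the first 3 rest on 2 to 13 reads, apart from the 66 of Myh3.

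**Figure D3:**
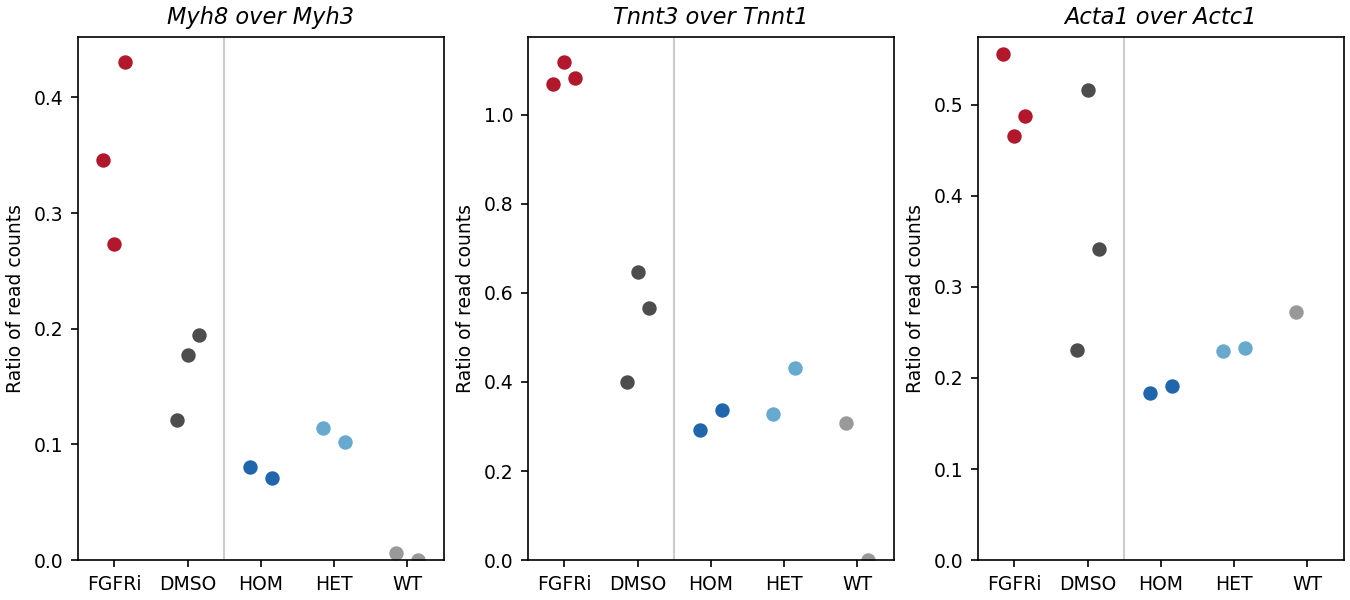
Ratio of read counts in each library for 3 pairs of related genes, by group; a WT library with no Actc1 read is missing from the last panel. FGFRi libraries lie above all others in the first and second panels, with 0.274 to 0.431 for Myh8 over Myh3 and 1.07 to 1.12 for Tnnt3 over Tnnt1, and overlap DMSO in the third.

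HOM glands stood above WT glands in many of these genes, and above HET glands in none that passed the test. Of the 44 tested genes 19 were called higher in HOM glands than in the mean of WT and HET glands and none lower, where 3.44% of all tested genes were called higher and 2.44% lower. The median log2 fold change was 2.12 (0.00055 over all genes). Against WT alone 30 genes were called higher, with a median of 3.70 and 4.5% of all genes called higher and 3.06% lower. Against HET alone none was called, where 0.618% of all genes were called higher and 0.876% lower. In that comparison 2 of the 44 genes, Musk and Alpk3, had an unadjusted p under 0.05, as did 12.5% of all tested genes. DESeq2 called none, and the median was 0.52. The 4 genes without a read in WT (Mybpc1, Unc45b, Xirp1 and Trim55) make a fitted fold change meaningless as a size, and with them at a floor of 3 WT reads over the group the medians were 2.07 against both controls and 3.61 against WT.

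**Figure D4:**
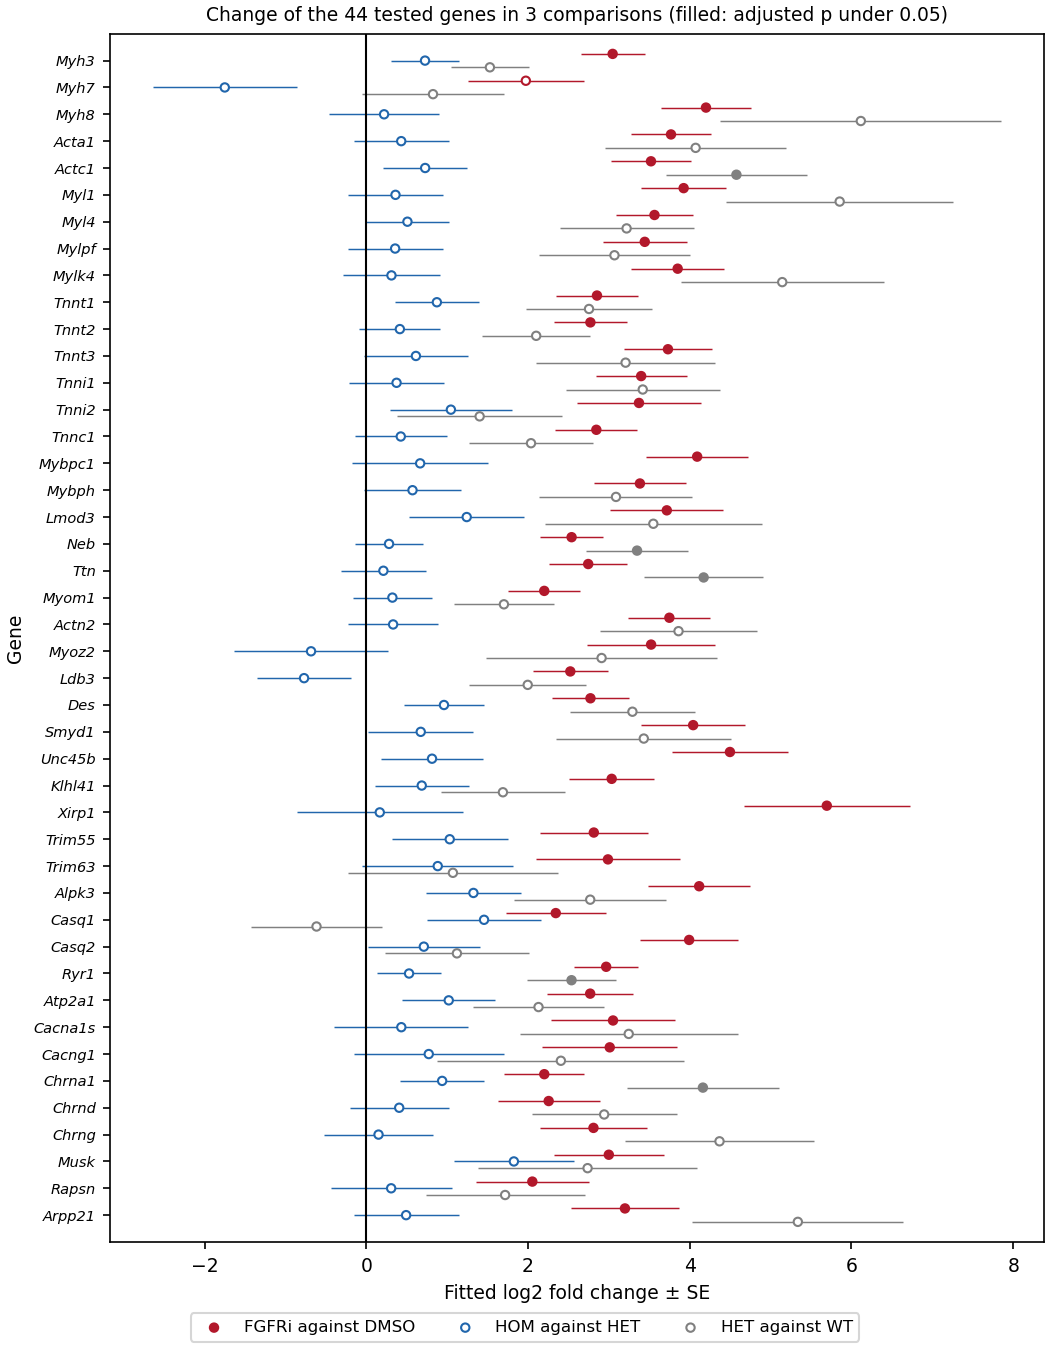
Fitted log2 fold change ± SE of the 44 tested genes in FGFRi against DMSO, HOM against HET and HET against WT, with filled points for adjusted p under 0.05; the 4 genes with no WT read are left out of HET against WT. Red points are filled for 43 of 44 genes, no blue point is filled, and grey points, with long bars, are filled for 5 genes.

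In order of p, Actc1 led the comparison of HOM with both controls, at 36.7 and 38.9 CPM in HOM, 17.2 and 28.6 CPM in HET and 1.61 and 0 CPM in WT glands. Des stood at 13.04 and 15.2 CPM in HOM, 5.68 and 8.92 CPM in HET and 1.03 and 0.324 CPM in WT glands. Chrna1 stood at 2.72 and 3.81 CPM in HOM, 1.51 and 1.93 CPM in HET and 0.146 and 0 CPM in WT glands. HOM libraries were the highest in all 3, HET libraries lay between and WT libraries were lowest. Ryr1 stood at 7.28 and 8.15 CPM in HOM, 4.16 and 6.59 CPM in HET and 0.952 and 0.865 CPM in WT glands. Alpk3 stood at 2.64 and 3.60 CPM in HOM, 0.833 and 1.69 CPM in HET and 0.146 and 0.216 CPM in WT glands. Neb stood at 15.2 and 14.3 CPM in HOM, 9.31 and 14.96 CPM in HET and 1.17 and 1.19 CPM in WT glands. In Neb HET 2 lay between the HOM libraries, and HET 1 lay below both. The log2 fold changes were 3.02 ± 0.56 SE for Actc1, 2.61 ± 0.50 for Des, 3.02 ± 0.57 for Chrna1, 1.80 ± 0.38 for Ryr1, 2.71 ± 0.58 for Alpk3 and 1.96 ± 0.43 for Neb, with adjusted p between 0.00534 and 0.0146. Against HET alone the same 6 genes had 0.73 ± 0.52, 0.96 ± 0.49, 0.94 ± 0.52, 0.53 ± 0.40, 1.33 ± 0.59 and 0.28 ± 0.42.

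The other 13 genes called in HOM against both controls were Ttn, Tnnt1, Musk, Unc45b, Trim55, Myh3, Myl4, Arpp21, Lmod3, Myl1, Atp2a1, Mylk4 and Actn2. Ttn stood at 81.5 and 85.4 CPM in HOM, 40.6 and 104 CPM in HET and 5.35 and 2.16 CPM in WT glands. Tnnt1 stood at 7.92 and 8.23 CPM in HOM, 4.16 and 4.66 CPM in HET and 0.952 and 0.216 CPM in WT glands. Myh3 stood at 52.5 and 62.0 CPM in HOM, 28.5 and 40.9 CPM in HET and 11.1 and 13.1 CPM in WT glands. Myh3 was the one gene of these with more than 10 CPM in WT glands. Musk stood at 1.36 and 1.20 CPM in HOM, 0.303 and 0.402 CPM in HET and 0 and 0.108 CPM in WT glands. Unc45b had 38 reads in HOM and none in WT glands and was at least 7.91-fold higher, and Trim55 had 58 and none and was at least 12.1-fold higher (floor of 3 reads over the WT group). The calls depended on single libraries: with any 1 library of the cross left out, fewer of the 44 genes were called. The same was true of all tested genes. The median over the 44 genes was 2.27 without HOM 1, 2.06 without HOM 2, 2.00 without HET 1 and 2.41 without HET 2. It was 2.62 without WT 1 and 1.89 without WT 2.

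Filament genes that were not called here, or called and not yet described, spanned the same order of groups. Myh8 stood at 4.24 and 4.39 CPM in HOM, 3.26 and 4.18 CPM in HET and 0.0732 and 0 CPM in WT glands. Acta1 stood at 6.72 and 7.45 CPM in HOM, 3.94 and 6.67 CPM in HET and 0.439 and 0.108 CPM in WT glands. Myl1 stood at 3.60 and 4.26 CPM in HOM, 2.35 and 3.86 CPM in HET and 0.0732 and 0 CPM in WT glands. WT was the lowest group in each, and the fitted difference between HOM and HET was smaller than its SE. Myl4 stood at 6.72 and 8.27 CPM in HOM, 4.09 and 6.59 CPM in HET and 0.806 and 0.216 CPM in WT glands. Mylpf stood at 5.76 and 7.36 CPM in HOM, 4.54 and 5.87 CPM in HET and 0.659 and 0.540 CPM in WT glands. Mylk4 stood at 1.84 and 2.73 CPM in HOM, 1.21 and 2.57 CPM in HET and 0.0732 and 0 CPM in WT glands. These light chain genes and the kinase overlapped or nearly touched between HOM and HET. Tnnt3 stood at 2.32 and 2.77 CPM in HOM, 1.36 and 2.01 CPM in HET and 0.293 and 0 CPM in WT glands. Tnnt2 stood at 6.56 and 6.99 CPM in HOM, 3.71 and 6.51 CPM in HET and 1.17 and 1.19 CPM in WT glands. Tnni1 stood at 4.56 and 4.22 CPM in HOM, 2.42 and 4.34 CPM in HET and 0.293 and 0.324 CPM in WT glands. In all 3 troponin genes the HET 2 library was close to HOM and the HET 1 library lower.

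Mybpc1 stood at 0.320 and 0.621 CPM in HOM, 0.454 and 0.161 CPM in HET and 0 and 0 CPM in WT glands. Mybph stood at 3.04 and 4.63 CPM in HOM, 1.51 and 3.78 CPM in HET and 0.513 and 0 CPM in WT glands. Lmod3 stood at 1.44 and 1.53 CPM in HOM, 0.606 and 0.643 CPM in HET and 0 and 0.108 CPM in WT glands. Mybpc1 had no read in WT, and its few reads elsewhere overlapped between HOM and HET. Myom1 stood at 2.48 and 2.77 CPM in HOM, 1.97 and 2.25 CPM in HET and 0.879 and 0.324 CPM in WT glands. Actn2 stood at 5.68 and 7.16 CPM in HOM, 3.94 and 6.43 CPM in HET and 0.586 and 0 CPM in WT glands. Smyd1 stood at 2.56 and 3.60 CPM in HOM, 1.29 and 2.65 CPM in HET and 0.293 and 0 CPM in WT glands. The HET 2 library came close to a HOM library or exceeded one in each. Klhl41 stood at 2.64 and 3.56 CPM in HOM, 1.82 and 2.09 CPM in HET and 0.879 and 0.216 CPM in WT glands. Unc45b stood at 1.04 and 1.03 CPM in HOM, 0.530 and 0.643 CPM in HET and 0 and 0 CPM in WT glands. Casq2 stood at 2 and 2.57 CPM in HOM, 0.757 and 2.09 CPM in HET and 0.879 and 0.324 CPM in WT glands. For Casq2 the WT 1 library was above HET 1. Atp2a1 stood at 4.16 and 3.68 CPM in HOM, 1.44 and 2.41 CPM in HET and 0.586 and 0.216 CPM in WT glands. Cacna1s stood at 1.52 and 0.993 CPM in HOM, 0.454 and 1.37 CPM in HET and 0.146 and 0 CPM in WT glands. HOM was highest in Atp2a1, without overlap. Chrng stood at 1.92 and 2.48 CPM in HOM, 1.14 and 2.89 CPM in HET and 0.0732 and 0.108 CPM in WT glands. Chrnd stood at 2 and 1.70 CPM in HOM, 0.530 and 2.25 CPM in HET and 0.293 and 0 CPM in WT glands. HET 2 exceeded at least 1 HOM library in Cacna1s, Chrng and Chrnd. Arpp21 stood at 2.80 and 3.23 CPM in HOM, 1.82 and 2.49 CPM in HET and 0.0732 and 0 CPM in WT glands.

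The Z-disc genes Ldb3 and Myoz2 and the slow myosin Myh7 departed from the order of Des, Actn2 and Tnnt1. Ldb3 stood at 0.7998 and 1.08 CPM in HOM, 1.21 and 2.09 CPM in HET and 0.146 and 0.757 CPM in WT glands, so HOM was below HET in every library. Myoz2 stood at 0.160 and 0.290 CPM in HOM, 0.303 and 0.482 CPM in HET and 0.0732 and 0 CPM in WT glands, with the same order. Myh7 stood at 0.160 and 0.207 CPM in HOM, 0.908 and 0.402 CPM in HET and 0.0732 and 0.757 CPM in WT glands. For Myh7 the HOM libraries were the lowest of the cross apart from WT 1, and these 3 genes were the ones in which every HOM library lay below every HET library. Against HET the log2 differences were -0.77 ± 0.58, -0.68 ± 0.95 and -1.75 ± 0.89 SE, and none was called. In 24 of the 44 tested genes every HOM library lay above every HET library, as in 20.5% of all tested genes, and in these 3 below, as in 20.6%.

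HET glands in turn stood above WT glands. Called higher in HET were 5 of 44 genes, where 0.851% of all tested genes were called higher and 0.372% lower: Ttn (4.17 ± 0.74), Neb (3.35 ± 0.64), Actc1 (4.58 ± 0.87), Ryr1 (2.54 ± 0.55) and Chrna1 (4.16 ± 0.94 SE, log2), with adjusted p between 0.0134 and 0.0444. None was lower. The median was 3.15 (2.84 with the 4 genes without WT reads at their floor), 34 genes had an unadjusted p under 0.05, and in 41 of the 44 both HET libraries lay above both WT libraries, as in 24.1% of all tested genes. Casq1 was the tested gene with a fitted value below 0 (-0.61 ± 0.81). This comparison and that of HOM with WT share the WT libraries. The calls rest on 2 libraries per group, and the median was 3.56 without HET 1, 2.75 without HET 2, 4.36 without WT 1 and 2.87 without WT 2.

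DMSO and WT glands are both wild type without inhibitor, but only DMSO glands received solvent. DMSO 1 and 3 were also female, while both WT libraries were male. Between the 2 groups 0 of 44 genes were called by edgeR, where 1.27% of all genes were called higher and 0.984% lower. DESeq2 called 4 higher, where it called 1.34% of all genes higher. In edgeR's test 17 had an unadjusted p under 0.05, as did 14% of all tested genes. The median log2 fold change was 2.05, or 1.78 with 2 of the WT-zero genes at their floor and the other 2 left out. Acta1, for example, was 0.478, 4.21 and 4.60 CPM in DMSO and 0.439 and 0.108 CPM in WT libraries (log2 3.44 ± 1.18 SE), and Myh3 was 10.5, 13.2 and 17.7 CPM in DMSO and 11.1 and 13.1 CPM in WT libraries (0.19 ± 0.49). Every DMSO library lay above both WT libraries in Acta1, and the groups overlapped in Myh3.

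The HOM effect is taken here against the mean of WT and HET glands, and HET stood above WT. By fitted value the FGFRi effect exceeded the HOM effect in 41 of 44 genes. The median difference was 1.10 on the log2 scale (-0.007 over all genes). None passed the test by edgeR or DESeq2, where edgeR called 1.36% of all genes in that direction and 1.41% in the other. Against WT alone the median HOM change was 3.70 (3.61 with the genes without WT reads at their floor). That lies above the 3.05 of FGFRi against DMSO, so the order of the 2 effects depends on the control. Of the 44 genes, Myh3, Myh7, Ldb3 and Casq2 had an unadjusted p under 0.05, as did 16.6% of all tested genes. In order of p the differences were 2.29 ± 0.76 for Ldb3, 3.31 ± 1.10 for Myh7, 2.72 ± 0.92 for Casq2, 1.56 ± 0.55 for Myh3, 1.17 ± 0.58 for Ryr1 and 1.504 ± 0.78 SE for Klhl41, with adjusted p between 0.125 and 0.360. The 3 genes with a smaller FGFRi effect were Trim55 (-1.37 ± 1.28, a value that rests on WT glands without reads), Chrna1 (-0.82 ± 0.81) and Musk (-0.19 ± 0.80).

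Mesenchymal genes moved with the muscle genes. Of 15 general mesenchymal markers 14 were called higher and none lower in FGFRi against DMSO glands, and their summed level was 4020 to 5525 CPM in FGFRi, against 2470 to 2599 CPM in DMSO libraries. It was 4278 to 4485 CPM in HOM, 3824 to 4186 CPM in HET and 2685 to 2810 CPM in WT libraries, so HET stood with HOM and apart from WT here too. In HET against WT 6 of the 15 were called higher. Among the 19 pan-epithelial genes 14 were called lower and 2 higher in FGFRi against DMSO glands. With libraries scaled to the mesenchymal genes, which moves the median of all genes by -0.88, 42 of the 44 muscle genes were called higher in FGFRi glands, with a median of 2.23. Of all 15859 genes 1.83% were called higher and 11182 lower there. With that scaling 29 were called in HOM against both controls (1.29% of all genes higher) and 26 in HET against WT (0.889%). Whether the rise of the muscle genes goes back to more mesenchyme was not tested. Within the FGFRi group, library 2 had 4626 CPM of mesenchymal and 285 CPM of muscle RNA, and library 3 had 4020 CPM of mesenchymal and 1218 CPM of muscle RNA.

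**Figure D5:**
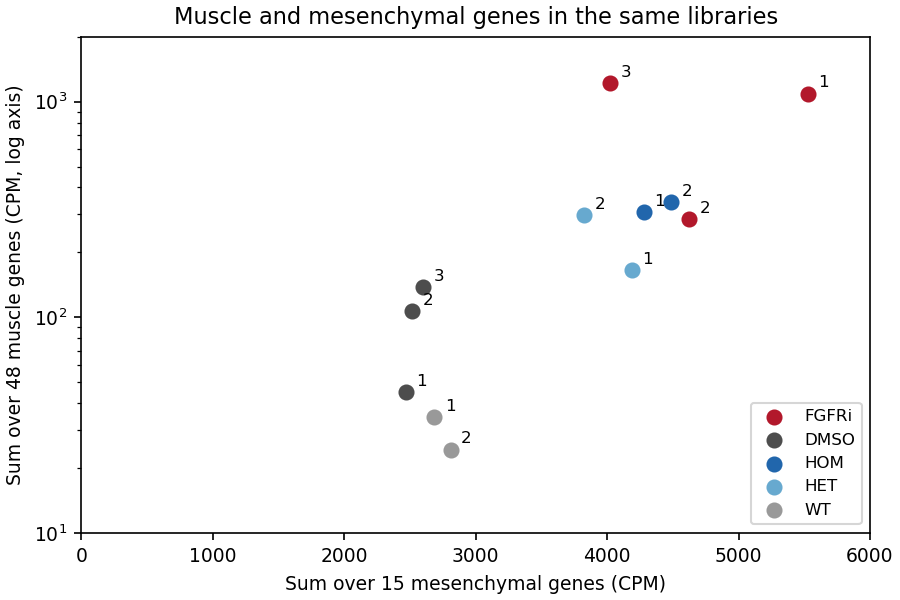
Summed level of the 48 muscle genes (CPM, log axis) against the summed level of 15 mesenchymal genes (CPM), 1 numbered point per library. FGFRi, HOM and HET libraries lie to the right of and above the DMSO and WT libraries, which lie at 2470 to 2810 CPM of mesenchymal RNA and 24.3 to 138 CPM of muscle RNA.

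Regulators of muscle formation were tested as a separate list of 20 genes, 15 with enough reads. In FGFRi against DMSO glands 7 were called higher and 2 lower, where 9.73% of all tested genes were called higher and 10.7% lower. In HOM against both controls 8 were called higher and none lower (3.44% and 2.44% of all genes). The 20 genes summed to 296, 225 and 312 CPM in FGFRi libraries, against 248, 259 and 237 CPM in DMSO libraries, so the groups overlapped and FGFRi 2 was lowest. The median log2 fold change in FGFRi glands was 1.45 over the 15 (-0.015 over all genes), and the 6 genes not called ran from -0.60 ± 0.22 SE for Chodl to 2.53 ± 0.89 SE for Pax7. The values given here are of genes called higher, and those of the 2 called lower are not given. Cdh15, the M-cadherin of muscle precursors, stood at 9.36, 3.02 and 11.6 CPM in FGFRi glands, against 0.159, 1.09 and 0.657 CPM in DMSO glands (log2 3.36 ± 0.54 SE). Mymk, the gene of the fusion protein myomaker, stood at 8.26, 1.94 and 8.02 CPM in FGFRi glands, against 0, 0.520 and 0.985 CPM in DMSO glands. Mef2c, a factor that works with MyoD, rose by 1.48 ± 0.25. Myod1, which commits cells to the muscle lineage, stood at 6.56 and 6.70 CPM in HOM, 2.95 and 5.47 CPM in HET and 0.146 and 0 CPM in WT glands. Myog, the gene of myogenin, which drives differentiation, stood at 10.4 and 11.7 CPM in HOM, 6.13 and 9.73 CPM in HET and 0.439 and 0 CPM in WT glands. HOM and HET libraries thus held both factors, and WT libraries had 2 reads of Myod1 and 6 of Myog in all. Myod1 stood at 7.34, 1.73 and 10.13 CPM in FGFRi glands, against 0.159, 1.40 and 0.657 CPM in DMSO glands. The HOM values of Myod1 lie inside the FGFRi range. So do the HOM sums of muscle RNA, at 307 and 341 CPM, against 285 to 1218 CPM in FGFRi libraries. Pax7, the marker of muscle stem cells, had at most 26 reads in a library.

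Further contractile and excitation genes were called higher in FGFRi glands in part, and of the further junction genes as many were called higher as lower. Of 29 further sarcomere genes 18 were tested, 12 were called higher and none lower in FGFRi against DMSO glands, with Flnc (filamin C, 1.12 ± 0.13), Tpm2 (beta-tropomyosin, 1.31 ± 0.22) and Synpo2l (3.03 ± 0.57 SE) first by p. Of 19 further excitation genes 13 were tested and 7 were higher, with Cacna2d1 (1.49 ± 0.14), Srl (1.01 ± 0.18) and Jph2 (2.49 ± 0.48) first. Of 8 further junction genes 7 were tested, 1 was higher (Dok7, 1.53 ± 0.46) and 1 lower (Agrn, -0.35 ± 0.10), and the 8 summed to 559.8 to 612 CPM in FGFRi, against 623 to 745 CPM in DMSO libraries. Of 12 muscle energy genes 7 were tested and 2 were higher (Art1, on 7, 6 and 19 reads in FGFRi against 0, 0 and 1 in DMSO libraries, and Pygm, 1.76 ± 0.48). In HOM against both controls the calls were 2, 1, 0 and 0 in these 4 lists, with Flnc, Synpo2l and Jph2 as the genes called. Of the adult fibre markers, Pvalb had no read in any library, and Myl2 and Myl3 had at most 1 in a library. The adult fast myosins Myh1, Myh2 and Myh4 had at most 49, as many as the called gene Chrnd had in FGFRi 3.

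Genes of heart muscle were mostly at or near 0. Of 12 cardiac markers 3 were tested, and Myl7, Nppb, Tbx5 and Gata4 had at most 1 read in a library. Nkx2-5, which is called higher in FGFRi glands, had 4, 0 and 32 reads in FGFRi and none in DMSO libraries. The summed level of the 12 was 18.3 to 20.9 CPM in FGFRi, against 4.73 to 14.9 CPM in DMSO libraries. Smooth muscle genes went the other way: of 10, 9 were tested and 4 were called lower and none higher in FGFRi glands, among them Myh11 (-1.26 ± 0.21), Acta2 (-0.67 ± 0.12) and Mylk (-0.43 ± 0.08 SE).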

How the data were processed

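The authors deposited raw read counts, whole numbers per gene for each of 12 libraries with no normalization. Per the submitters' processing notes bcl2fastq, STAR and build GRCm39 were used, and the counting program, its use of strand and its annotation are not stated there. Identifiers were matched to GENCODE M21 symbols (52403 of 52636). The 48 genes, the 14 other lists and the alternatives were chosen with earlier results of these data known. A quasi-likelihood F test (edgeR 4.0.16 under R 4.3.3, two-sided) was fitted to all 12 libraries with TMM normalization, filterByExpr (minimum count 10, minimum total 15; 15859 genes kept) and 1 coefficient per group. Benjamini-Hochberg adjustment ran over all tested genes of a comparison, with a call at adjusted p under 0.05. SE is the log2 fold change divided by the square root of F. The fit was checked on simulated data. Named with all values were up to 4 genes per role by p and every gene not called, and in other comparisons those of smallest p. Alternatives were other scalings, no filter, DESeq2 1.42.0, the compared groups alone, a replicate block and each library left out. Protein-coding genes alone, a block with WT numbers crossed, and DESeq2 and left-out libraries for HOM against each control were added after the data were seen. Intervals and floors cover counting error only. Values of some genes of the muscle regulator list are not reported here.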

Additional observations from a re-analysis of the deposited data

How the results depend on the processing

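In FGFRi against DMSO glands the 44 tested genes kept their direction under every alternative run, with 41 to 44 called higher under the other settings and 35 to 44 with 1 library left out. The scaling moved the median of all genes by 0.32 (pan-epithelial) and -0.88 (mesenchymal). Of all tested genes 36% were called higher with pan-epithelial and 1.83% with mesenchymal scaling. The share was 5.59% to 11.9% under the other settings and 6.57% to 9.48% with 1 library left out. In HOM against both controls 19 were called, where 3.44% of all genes were called higher. The count was 36 with library totals (3.38% of all genes), 38 with pan-epithelial scaling (62.9%), 29 with mesenchymal scaling (1.29%) and 36 without a filter (2.92%). It was 31 with the compared groups alone (5.33%), 30 against WT alone (4.5%) and 0 against HET alone (0.618%). With pan-epithelial and mesenchymal scaling the median of all genes moved by 0.49 and -0.40. With 1 library left out the median over the 44 genes ran from 1.89 to 2.62. In HET against WT 5 were called, where 0.851% of all genes were called higher. The count was 30 with library totals (1.43% of all genes), 16 with pan-epithelial scaling (2.5%) and 26 with mesenchymal scaling (0.889%). It was 33 without a filter (1.42%), 15 with DESeq2 (1.05%) and 19 with the compared groups alone (1.22%). With 1 library left out the median over the 44 genes ran from 2.75 to 4.36. In DMSO against WT none was called, where 1.27% of all genes were called higher. The count was 16 with library totals (1.57% of all genes), 6 with mesenchymal scaling (1.34%) and 20 without a filter (1.35%). It was 4 with DESeq2 (1.34%), 2 with the compared groups alone (0.952%) and 0 to 2 with 1 DMSO library left out (0.958% to 1.22%). For the FGFRi effect minus the HOM effect none was called, where 1.36% of all genes were called higher. The count was 2 with library totals (0.467% of all genes), 1 with mesenchymal scaling (0.649%) and 11 without a filter (1.65%). It was 0 to 4 with 1 FGFRi or DMSO library left out (0.776% to 1.78%). The cause of these shifts was not tested.

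Direction turned in Ldb3 in HOM against both controls (0.23), at -0.18 with mesenchymal scaling, -0.77 against HET alone, and from -0.20 (without WT 1) to 0.95 (without WT 2) with 1 library left out, -0.034 without HOM 2 among them, and in Myoz2 (0.77), at -0.68 against HET alone. The difference of effects in Musk (-0.19) ran from -1.42 (without WT 2) to 1.25 (without DMSO 2) with 1 library left out, and was 0.24 without FGFRi 2 and 0.38 without WT 1. None of these was called.

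Libraries of the same number did not deviate together (correlations of -0.147 to 0.027 between their deviations from the group means). With 2 or 3 libraries in a group these deviations constrain each other, so the correlations cannot tell whether the numbers pair libraries. With a replicate block 41 genes were called in FGFRi against DMSO (8.73% of all genes were called higher) and 20 in HOM against both controls (3.03%). It was 6 in HET against WT (0.706%), and 0 in DMSO against WT (0.876%) and in the difference of effects (0.908%). With the WT numbers crossed, 18 were called in HOM against both controls (3.1%) and 4 in HET against WT (0.839%). Where a library is left out of a group of 2, the lone library is assumed to vary like the other groups. Depth limits the genes with under 30 reads in a group, and HOM against HET has 2 libraries on each side and differs in sex.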

Other observations

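Outside the listed genes, the 10 whose log2 level had the highest Pearson r with the log2 summed level of the 48 genes over the 12 libraries, all of which share their depth and group structure, were Hfe2, Mypn, Iffo1, Klhl31, Dusp27, Ank1, Srpk3, Cap2, Ehbp1l1 and Rbm24 (r 0.975 to 0.947). All 10 were called higher in FGFRi against DMSO glands, since closeness to that sum was how they were chosen. Mypn, the gene of the Z-disc protein myopalladin, rose by 2.81 on the log2 scale, and Klhl31, another Kelch gene, by 4.01. Among the 48 genes r with the sum ran lowest for Myh7 (0.52), Casq1 (0.73), Ldb3 (0.83) and Trim63 (0.83).

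In WT 2, 121 of the 225 reads of the 48 genes were Myh3, while Actc1 had none and Acta1 had 1. Myosin heavy chains were 17.2% to 19.1% of the muscle reads in FGFRi, 14.8% to 27.3% in DMSO, 18.5% to 19.5% in HOM and 15.3% to 19.8% in HET libraries, against 32.8% in WT 1 and 56.9% in WT 2. Whether these WT reads come from muscle was not tested.

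Among markers of other cells, 6 of 11 Schwann and glial genes were called higher and 2 lower in FGFRi against DMSO glands, and 4 of 9 tested neuron genes were higher. The shares over all tested genes were 9.73% higher and 10.7% lower. The Schwann and glial genes summed to less in FGFRi, at 301 to 342 CPM, against 390 to 470 CPM in DMSO libraries. Neuron genes summed to 176 to 244 CPM in FGFRi, against 49.2 to 187 CPM in DMSO libraries. Of 6 tested tendon genes 1 was higher (Kera) and 2 lower (Egr1 and Tnmd), and of 7 tested cartilage and bone genes 2 were higher and 2 lower (Col9a1 and Col2a1), with Ibsp at 0 in every library. Of 7 endothelial genes 1 was higher (Cdh5) and 1 lower (Cldn5).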
